A study of Saccharomyces cerevisiae with 6 samples.

Results

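The pheromone response and mating genes of budding yeast were examined in cells depleted of Hsp90. The 55 genes were chosen by name, from the pheromones and receptors to the cell fusion genes, and all 55 were found among the 6377 open reading frames on the arrays. Haploid yeast exists as MATa and MATα cells, each of which secretes a peptide pheromone that binds a receptor on the other type. The bound receptor frees the Ste4-Ste18 part of a G protein from Gpa1, and a cascade of the kinases Ste20, Ste11, Ste7 and Fus3 or Kss1 on the scaffold Ste5 then acts on the transcription factor Ste12, which switches on genes for adhesion, cell fusion and nuclear fusion. Which pheromone and receptor genes a cell uses is set by its mating type locus.

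Each of the 6 arrays compared dox-treated with untreated cells of a single strain in the R1158 background, TETp-HSC82 hsp82Δ arg4Δ lys5Δ car2Δ::URA3. Doxycycline (dox) shuts the promoter of HSC82, which is the only Hsp90 gene left in this strain, and the untreated cells carried the same alleles. These haploids came from sporulated crosses and carry the tTA activator at ura3. Log-phase cells received dox at 5 μg/mL, and the treatment lasted 11 h. Culture 1 and culture 2 each gave 3 technical arrays, so the number of independent replicates was 2 cultures. The cells were also isotope-labeled with light or heavy amino acids, and the study swapped the forms of treated and untreated cells between its experiments. The sample labels do not say which form the treated cells of each culture carried. The protocols of these cultures name no added pheromone, and the mating type of the strain is not given in the sources used here. Because the deposited values are ratios, they hold no level from which it could be read.

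All values below are log2 ratios with dox-treated cells on top and untreated cells beneath, so that 1 stands for a doubling and −1 for a halving. HSC82 itself averaged −6.25 in culture 1 and −5.73 in culture 2 and was lower on all 6 arrays. The probe of HSP82, which the genotype lists as deleted, read −6.63 in culture 1 and −5.97 in culture 2, and whether it reads the related HSC82 was not tested. Array medians lay between −0.032 and 0.021, and 6180 to 6353 values were present per array. A gene was called changed when the mean of both cultures lay beyond 1.5-fold (a log2 ratio of 0.585 in size) with an unadjusted p below 0.05 from limma. The study's methods give these thresholds, without saying whether p was adjusted. Standard errors below are the moderated ones of limma, which pulls the variance of each gene toward a value shared by all genes. They can therefore be smaller or larger than the spread between the cultures of that gene. Dox-treated and untreated cells always carried the same dye each, so a dye effect on a single gene cannot be told apart from that of dox.

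By this criterion 20 of the 55 mating genes changed, against 10.5% of all 6290 genes tested. Of these, 15 fell (4.74% of all genes did) and 5 rose (5.74% of all genes did). After Benjamini-Hochberg adjustment over all genes, 12 of the 55 stayed past the threshold, 9 lower and 3 higher, against 5.36% of all genes. Beyond 2-fold there were 7, against 2.88% of all genes. Without any fold threshold 29 had an unadjusted p below 0.05, 23 of them lower, against 29.1% and 15.2% of all genes. The adjusted calls were sensitive to the processing. With each array centered on its median, 0 members passed the adjusted threshold in limma, while the same 20 members met the unadjusted criterion. The 55 members had a median log2 ratio of −0.25 (culture 1) or −0.09 (culture 2), against −0.02 and 0.02 for all genes tested. On all arrays with a value, 24 members were lower and 8 were higher, where 23.3% and 23.5% of all genes were.

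Genes that are transcribed in only 1 mating type held both ends of the range of members. All 7 genes specific to MATa cells fell (AGA2, MFA1, BAR1, STE2, MFA2, STE6 and ASG7), with a median log2 ratio of −1.24. All 4 genes specific to MATα cells had positive means in both cultures, as did 37% of all genes. The mean of MF(ALPHA)2 in culture 2 was only 0.03, from the 2 arrays with a value. By the criterion 2 of the 4, MF(ALPHA)1 and STE3, rose. Among all genes 4.74% fell and 5.74% rose. In cultures of many cells, fewer cells that express a gene and less RNA per cell cannot be told apart. Spot intensities were not analysed, so how far above background either set of genes was read is not known.

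MF(ALPHA)1, which encodes the main precursor of α-factor, had log2 ratios of 2.57, 2.63 and 2.95 on the arrays of culture 1 and of 3.42, 2.54 and 3.34 on those of culture 2. Every array was far above 0, and the ranges of the cultures overlapped. Its mean was 2.91 with a moderated standard error of 0.14 (n = 2 cultures), a 7.51-fold rise (adjusted p = 0.00646 from limma). It was the highest mean ratio of any gene in culture 2 and ranked 2 among the 6290 genes by the mean of both cultures. MF(ALPHA)2, the minor α-factor gene, had 0.36, 0.49 and 0.80 in culture 1 but 0.00 and 0.05 on the 2 arrays of culture 2 that gave a value. The value of 0.00 was neither above nor below 0, and whether it is a measured ratio is not known. The cultures did not overlap, and the mean, 0.29 ± 0.16 (standard error), did not meet the criterion (adjusted p = 0.296 from limma). The transcripts of the α-factor genes are related in sequence, and cross-hybridization between their probes was not tested.

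STE3 encodes the receptor for a-factor on MATα cells. Its log2 ratios were 0.53, 0.76 and 0.15 in culture 1 and 0.97, 0.92 and 0.93 in culture 2. All 6 arrays were above 0, with culture 2 the higher throughout, and the mean of 0.71 (standard error 0.15, a 1.64-fold rise, adjusted p = 0.0607 from limma) met only the unadjusted criterion. SAG1, the α-agglutinin that sticks to its partner on MATa cells, had 0.52, 0.52 and 0.69 in culture 1 and 0.00, 0.27 and 0.18 in culture 2. Culture 1 lay above culture 2 on every array, and the mean of 0.36 missed the criterion (adjusted p = 0.178 from limma).

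On the MATa side, AGA2, the binding subunit of a-agglutinin, had the lowest mean of all members. Its log2 ratios were −1.72, −1.71 and −1.63 in culture 1 and −1.51, −1.44 and −1.44 in culture 2, a mean of −1.57 (standard error 0.13, 2.98-fold lower, adjusted p = 0.0143 from limma). The spread within each culture was small (SD 0.05 and 0.04 over technical arrays), and culture 1 lay below culture 2. The a-factor precursor gene MFA1 had −1.50, −1.56 and −1.24 in culture 1 and −1.62, −1.53 and −1.52 in culture 2. Here the cultures overlapped, and the mean of −1.50 (standard error 0.12, 2.82-fold lower, adjusted p = 0.0143 from limma) ranked 17 from the bottom of all genes.

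MFA2, the other a-factor gene, had −1.26, −1.32 and −1.08 in culture 1 and −1.08, −0.97 and −0.96 in culture 2, so that it fell 2.16-fold (mean −1.11, adjusted p = 0.0226 from limma), with cultures that barely overlapped. As for MF(ALPHA)1 and MF(ALPHA)2, the probes of this gene pair could share signal, which was not tested. STE2, the α-factor receptor, had −1.39, −1.42 and −1.46 in culture 1 and −1.18, −1.03 and −0.99 in culture 2 (mean −1.24, 2.37-fold lower, adjusted p = 0.0226 from limma). BAR1, a secreted protease that breaks down α-factor, had −1.42, −1.43 and −1.51 in culture 1 and −1.22, −0.86 and −1.02 in culture 2, and its fall was also 2.37-fold (mean −1.25, adjusted p = 0.0254 from limma). In both genes all arrays of culture 1 lay below those of culture 2.

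STE6, the transporter that exports a-factor, had −1.08, −1.10 and −1.03 in culture 1 and −0.89, −0.88 and −0.80 in culture 2. Culture 1 was again the lower throughout, and the gene fell 1.95-fold (mean −0.96, adjusted p = 0.0294 from limma). ASG7, whose product acts on signaling through the Gβ subunit Ste4, was the least even of the MATa genes. It had −1.56, −1.65 and −1.19 in culture 1 and −0.23, −0.56 and −0.52 in culture 2. All arrays were below 0, but the fall was far larger in culture 1, and the mean of −0.95 (standard error 0.25) had an adjusted p of 0.0841 from limma.

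**Figure D1:**
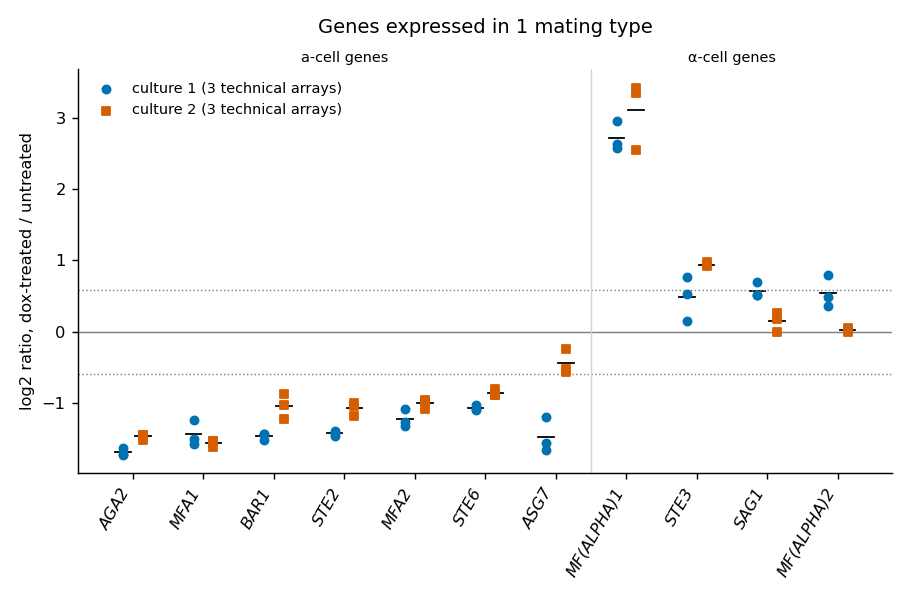
Log2 ratio of dox-treated over untreated cells (y axis) for the 7 genes specific to MATa cells and the 4 genes specific to MATα cells. Points are technical arrays, circles for culture 1 and squares for culture 2, black bars are culture means, and dotted lines mark 1.5-fold. All MATa genes lie below 0 on every array, with AGA2 lowest (mean −1.57), and MF(ALPHA)1 stands highest (mean 2.91).

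The mating-type genes themselves set these programs and are not among the 55. None of the 6 probes named for them met the criterion. Among all genes 10.5% met it, so a count of 0 among 6 probes does not set the mating-type genes apart. Their copies at the mating type locus and the silent loci are alike in sequence, so a probe may read more than 1 locus. HMRA1 had the largest mean in size (0.54 for culture 1, 0.21 for culture 2, adjusted p = 0.148 from limma). MATALPHA1, the activator of α-specific genes, had −0.10 in culture 1 and −0.16 in culture 2, and HMLALPHA1 had −0.22 and −0.24. MCM1, a member and the transcription factor that works with the mating-type proteins at both gene sets, had 0.02 in culture 1 and −0.14 in culture 2, with arrays on either side of 0.

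Among the 11 genes of the signaling cascade, 2 fell (KSS1 and FUS3), 1 rose (STE11) and 8 did not meet the criterion, where 4.74% of all genes fell and 5.74% rose. The list had a median of −0.43 (culture 1) and −0.36 (culture 2), and 7 of the 11 genes were lower in both cultures, as were 37% of all genes. KSS1, the MAP kinase shared with filamentous growth, had −1.01, −0.97 and −1.49 in culture 1 and −0.78, −0.44 and −0.54 in culture 2. Culture 1 was the lower on every array, and the mean of −0.87 (standard error 0.17, 1.83-fold lower) had an adjusted p of 0.0528 from limma. FUS3, the MAP kinase of the mating response, had −0.64, −0.46 and −0.79 in culture 1 and −0.77, −0.49 and −0.42 in culture 2. The cultures overlapped, and the mean of −0.59 was just beyond 1.5-fold (1.51-fold lower, adjusted p = 0.0533 from limma). It lost the call without the third array of culture 1 (−0.55) or the first array of culture 2 (−0.54). Culture 2 alone (−0.56) stayed within 1.5-fold.

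STE11, the MAP kinase kinase kinase, ran the other way, with 0.75, 0.68 and 1.07 in culture 1 and 0.83, 0.26 and 0.86 in culture 2. It was above 0 on all arrays, 1.67-fold higher by its mean, 0.74 ± 0.12 (standard error, adjusted p = 0.039 from limma). The kinase below it, STE7, was also above 0 on all 6 arrays but stayed within 1.5-fold, with a mean of 0.25 in culture 1 and 0.32 in culture 2.

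Of the G protein genes, GPA1 (the α subunit) stopped just short of the criterion. It had −0.80, −0.67 and −0.69 in culture 1 and −0.51, −0.48 and −0.36 in culture 2, without overlap, and the mean of −0.584 compares with the threshold of 0.585 in size. STE12, the transcription factor at the end of the cascade, likewise stayed within 1.5-fold, with −0.69 in culture 1 and −0.45 in culture 2 (mean −0.57, adjusted p = 0.0635 from limma). STE4 (−0.43 in culture 1 and −0.32 in culture 2) and STE18 (−0.46 and −0.36), the βγ subunits, were below 0 on all arrays and within 1.5-fold. STE5, the scaffold, had −0.24, 0.05 and 0.02 in culture 1 against −0.47, −0.46 and −0.41 in culture 2, so only culture 2 was below 0 throughout. The upstream kinase STE20 and its partner in activating Ste11, STE50, had means of −0.04 and −0.002, with arrays on both sides of 0.

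Regulators of the pathway were examined next, and 3 of 7 fell (SST2, FAR1 and TEC1) with none called higher, against 4.74% of all genes that fell. Of these, SST2 alone passed the adjusted threshold. SST2 speeds the return of Gpa1 to its resting state and thereby dampens the signal. Its log2 ratios were −1.23, −1.05 and −1.31 in culture 1 and −0.86, −0.83 and −0.63 in culture 2 (mean −0.99, standard error 0.15, 1.98-fold lower, adjusted p = 0.0356 from limma). FAR1, which arrests the cell cycle and marks the site of growth toward a partner, had −1.20, −1.10 and −1.08 in culture 1 and −0.58, −0.50 and −0.20 in culture 2. Both genes were below 0 on all arrays and lower in culture 1 than in culture 2 without overlap, and the mean of FAR1 was −0.78 (adjusted p = 0.0744 from limma).

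TEC1, the partner of Ste12 at filamentation genes, had the reverse order of cultures. It had −0.42, −0.41 and −0.45 in culture 1 and −1.11, −0.74 and −1.02 in culture 2, and its mean of −0.69 corresponds to a 1.62-fold fall (adjusted p = 0.0701 from limma). The Ste12 inhibitors differed from each other. DIG2 was above 0 on all 6 arrays with a mean of 0.38 that stayed within 1.5-fold, and DIG1 averaged −0.01 with arrays on either side of 0. MSG5, a phosphatase that acts on Fus3, had −0.35 in culture 1 and −0.002 in culture 2.

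**Figure D2:**
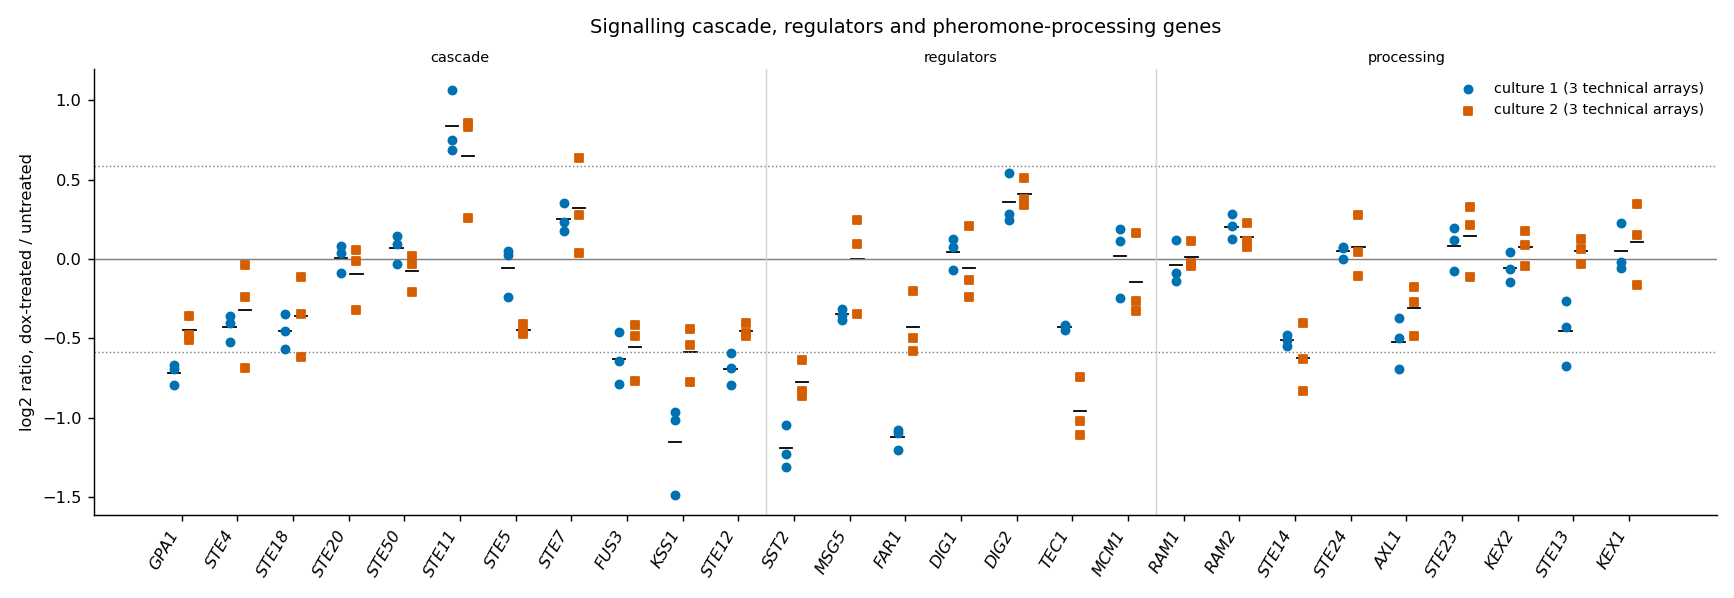
Log2 ratio of dox-treated over untreated cells (y axis) for cascade genes in signaling order, regulators and pheromone-processing genes. Points are technical arrays, circles for culture 1 and squares for culture 2, black bars are culture means, and dotted lines mark 1.5-fold. KSS1, SST2 and FAR1 reach below −1 in culture 1, STE11 lies above 0, and most processing genes lie near 0.

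The 18 pheromone-induced genes, most of which are targets of Ste12, did not move as a block. The criterion called 4 of them lower (AGA2, PRM5, PRM10 and FUS1) and 2 higher (PRM2 and FIG1), and 12 were not called, where 4.74% of all genes fell and 5.74% rose. Their median lay at −0.23 (culture 1) and 0.00 (culture 2). That is 0.20 above the median of the cascade genes in culture 1 and 0.36 above it in culture 2, with no test. The range of the induced genes was wider, between −1.57 (AGA2) and 0.65 (PRM2) against −0.87 (KSS1) and 0.74 (STE11) for the cascade. A range tends to widen with the number of genes, here 18 against 11. AGA2 is also among the 7 MATa genes described above, and PRM5 was the next lowest at −1.54.

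PRM5, a membrane protein gene that is induced by pheromone and by cell wall stress, had the second lowest mean of all members. Its log2 ratios were −1.69, −1.70 and −1.65 in culture 1 and −1.33, −1.40 and −1.46 in culture 2 (mean −1.54, standard error 0.13, 2.91-fold lower, adjusted p = 0.0143 from limma). The arrays of each culture lay close together and culture 1 was the lower. The anchor subunit of a-agglutinin, AGA1, moved less than its partner AGA2, with a mean of −0.62 in culture 1 and −0.35 in culture 2. It was below 0 on all arrays, and the combined mean of −0.48 was within 1.5-fold (adjusted p = 0.0849 from limma).

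FUS1, the membrane protein at the site of cell fusion that is widely used as a readout of the pathway, had −0.69, −0.73 and −0.67 in culture 1 and −0.95, −1.06 and −0.70 in culture 2. All arrays were below 0, the cultures overlapped, and the fall was 1.74-fold (mean −0.80, standard error 0.12, adjusted p = 0.0361 from limma). FUS2, which also serves cell fusion, was below 0 on all arrays but within 1.5-fold (−0.40 in culture 1 and −0.14 in culture 2). PRM1, which takes part in merging the plasma membranes, had 0.06, 0.03 and −0.13 in culture 1 and −1.21, 0.04 and −0.76 in culture 2. Its technical arrays in culture 2 were the most scattered of any member (SD 0.64), and it was not called.

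PRM2 and FIG1 were the induced genes that rose. PRM2, which works in nuclear fusion, had 0.73, 0.58 and 0.81 in culture 1 and 0.51, 0.60 and 0.65 in culture 2, a 1.56-fold rise (mean 0.65, standard error 0.12, adjusted p = 0.0472 from limma). The cultures overlapped and all arrays were above 0. FIG1, a membrane protein of the calcium response in mating, had 0.88, 0.90 and 1.09 in culture 1 and 0.56, −0.08 and 0.45 in culture 2. Its 1.55-fold rise (mean 0.63, adjusted p = 0.0948 from limma) rested mainly on culture 1, and the call was lost without the first array of culture 2 (0.57), after scale normalization (0.58) and after quantile normalization (0.57). FIG2, a cell wall adhesin, had −0.33 in culture 1 and −0.28 in culture 2.

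Other members that serve nuclear fusion were not called. KAR5, which joins the nuclear envelopes, had means of −0.02 and −0.04 in the cultures, and PRM3, which acts at the same step, had −0.17 in culture 1 and 0.16 in culture 2. KAR4, the transcription factor that works with Ste12 at late mating genes, had −0.25 in culture 1 and 0.04 in culture 2. None of these means reached 1.5-fold in either culture. Of the other PRM genes, PRM4, PRM6 and PRM8 had means between −0.08 and 0.15, and PRM6 lacked a value on the second array of culture 2.

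**Figure D3:**
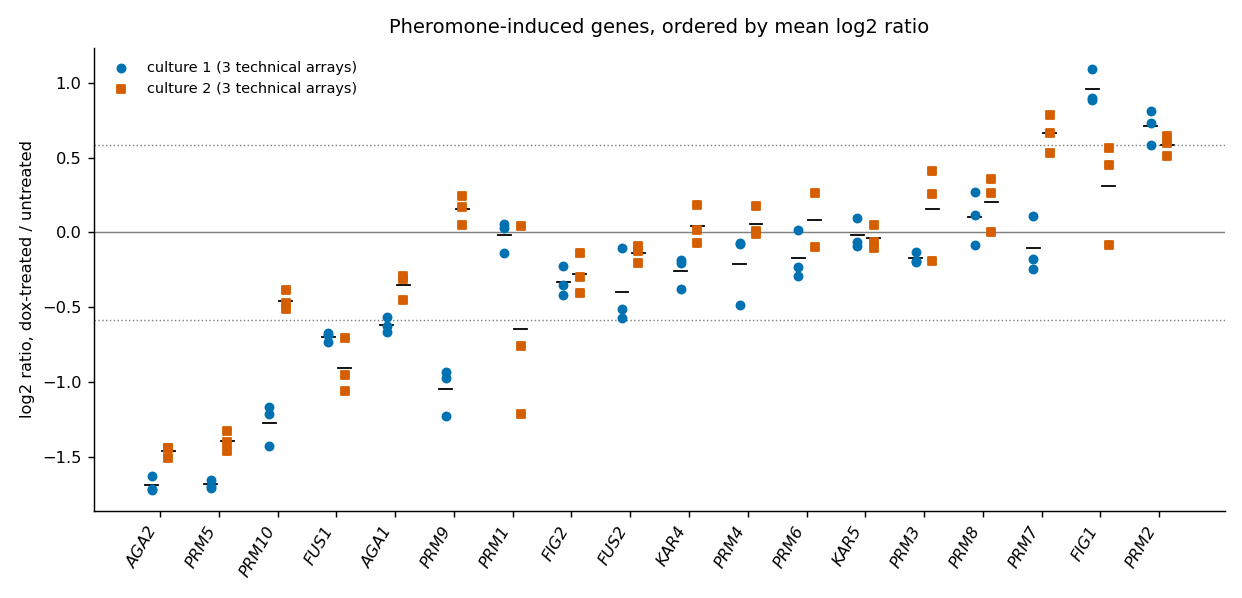
Log2 ratio of dox-treated over untreated cells (y axis) for the 18 pheromone-induced genes, ordered by mean. Points are technical arrays, circles for culture 1 and squares for culture 2, black bars are culture means, and dotted lines mark 1.5-fold. AGA2 and PRM5 are below −1.3 on every array at the left end, PRM2 is above 0.5 at the right end, and PRM9, PRM10, PRM7 and FIG1 have cultures that lie apart.

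None of the 9 pheromone-processing genes met the criterion in limma, where 10.5% of all genes did. At that share, a count of 0 among 9 genes does not set the list apart. When no fold was asked, 2 of 9 had an unadjusted p below 0.05 in limma, a share below the 29.1% of all genes. Their median lay at −0.04 (culture 1) and 0.07 (culture 2), which is 0.39 and 0.43 above that of the cascade, and their means spanned −0.57 to 0.17. STE14, which methylates the farnesylated end of the peptide, had −0.51, −0.55 and −0.48 in culture 1 and −0.83, −0.40 and −0.63 in culture 2. It was below 0 on all arrays and just within 1.5-fold (mean −0.57, standard error 0.12, adjusted p = 0.0587 from limma). AXL1, a protease that trims the a-factor precursor, had −0.69, −0.37 and −0.50 in culture 1 and −0.48, −0.18 and −0.27 in culture 2 (mean −0.42, adjusted p = 0.103 from limma).

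The other enzymes of a-factor maturation lay close to 0. The farnesyltransferase subunits RAM1 and RAM2 had means of −0.01 and 0.17, and the proteases STE24 and STE23 had 0.06 and 0.11. Among the enzymes that release α-factor from its precursor, KEX2, which cuts between the repeats, had 0.01, and KEX1, which trims the end, had 0.08. STE13, the dipeptidyl aminopeptidase of the same pathway, had −0.43, −0.26 and −0.67 in culture 1 and −0.03, 0.12 and 0.06 in culture 2, so that only culture 1 was below 0 throughout.

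**Figure D4:**
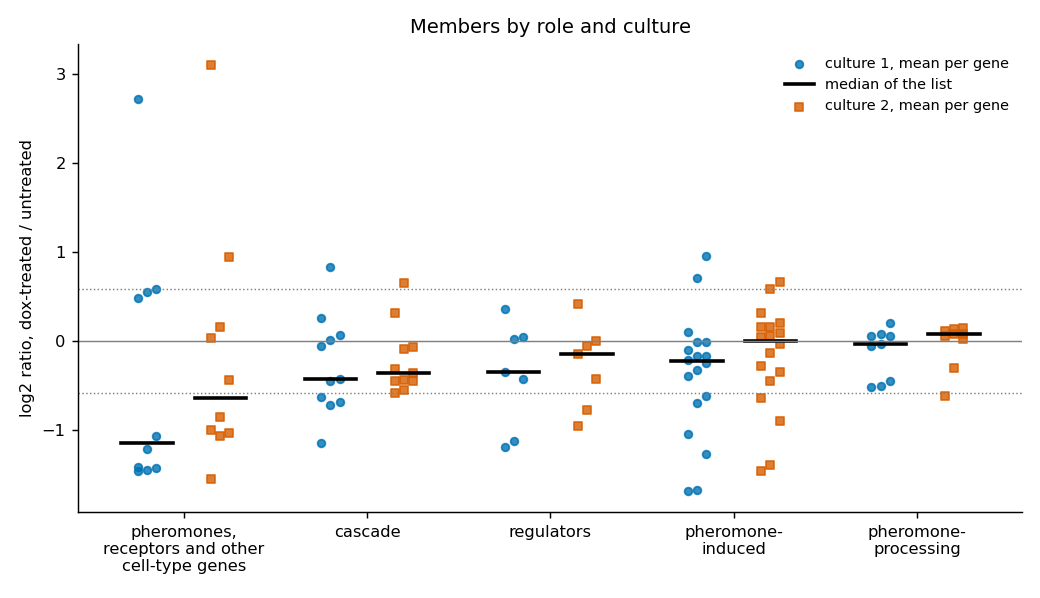
Mean log2 ratio of dox-treated over untreated cells (y axis) of each of the 55 members, grouped by role, with circles for culture 1 and squares for culture 2. Thick black bars are the median of a list in a culture and dotted lines mark 1.5-fold. The pheromone, receptor and other cell-type genes spread furthest, the cascade medians lie at −0.43 and −0.36, and the processing medians lie near 0.

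The cultures were then compared with each other, by limma over 3 technical arrays against 3, which describes these 2 cultures and not a treatment. By a difference above 1.5-fold with an adjusted p below 0.05, 6 of the 55 members differed, against 7.47% of all genes. PRM9 and ASG7 had the largest differences. PRM9, a membrane protein gene, had −0.98, −0.93 and −1.23 in culture 1 and 0.25, 0.05 and 0.17 in culture 2, with opposite signs and no overlap (difference of culture 1 minus culture 2 −1.20, standard error 0.11, adjusted p = 0.000196 from limma). ASG7 had a difference of −1.03 (adjusted p = 0.0016 from limma), and its ratio was negative in both.

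PRM10 and FAR1 were lower in culture 1 as well. PRM10, which encodes a membrane protein, had −1.17, −1.22 and −1.43 in culture 1 and −0.51, −0.47 and −0.38 in culture 2, and the mean of −0.86 met the criterion (1.82-fold lower, adjusted p = 0.0744 from limma) although culture 2 alone stayed within 1.5-fold. PRM7 had arrays on both sides of 0 in culture 1 but above 0.5 in culture 2, with 0.11, −0.24 and −0.18 in culture 1 and 0.53, 0.78 and 0.67 in culture 2. Its difference was −0.77 (adjusted p = 0.00275 from limma). FIG1 was the only one of the 6 with the higher ratio in culture 1. Of the 55 genes, 34 had the larger ratio in size in culture 1 (3967 of 6290 for all genes), and 13 had opposite signs in the cultures, near the share of all genes that did (25.9%).

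**Figure D5:**
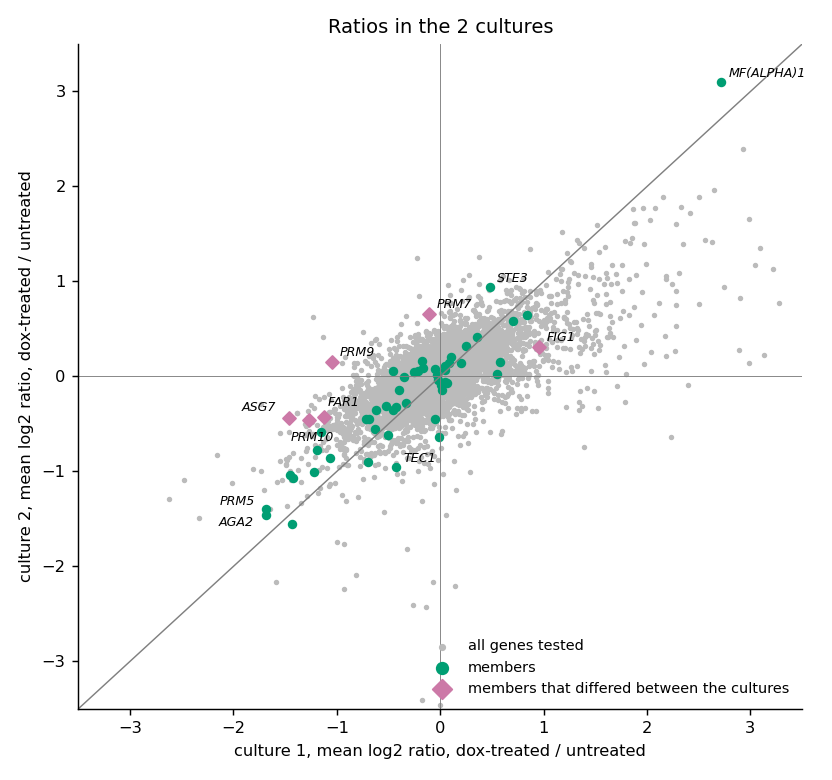
Mean log2 ratio of dox-treated over untreated cells in culture 1 (x axis) and in culture 2 (y axis) for all genes tested (grey), the members (green) and the 6 members that differed between the cultures (diamonds). The diagonal marks equal ratios, and 10 genes, none of them a member, fall outside the plotted limit of 3.5. MF(ALPHA)1 lies above all other genes shown in culture 2.

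Further genes of the pathway were taken from a list of 44 that hold roles in polarity, fusion and adaptation or belong to the mating-type loci. By the criterion 7 of the 44 changed, 4 lower and 3 higher, against 10.5% of all genes. The adjusted threshold left 2, a share below the 5.36% of all genes. SCW11, a cell wall glucanase, fell 2.07-fold (−1.14 for culture 1, −0.95 for culture 2, adjusted p = 0.0246 from limma), while its relative SCW10 rose 1.57-fold (0.68 and 0.62, adjusted p = 0.045 from limma). AFR1, a pheromone-induced gene that shapes the mating projection, and CHS1, a chitin synthase, had means of −0.96 and −1.09 in culture 1 and −0.49 and −0.43 in culture 2. PTP2, a phosphatase of MAP kinases, had −0.90 and −0.41. The genes called higher beside SCW10 were PGU1, a pectin-degrading enzyme of filamentous growth (1.20 in culture 1 and 0.61 in culture 2), and HBT1, which acts in projection shape (2.90 and 0.83).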

How the data were processed

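The data were 2-color oligonucleotide arrays of 6 samples from 2 cultures. The authors labeled cDNA of dox-treated and untreated cells with 2 Alexa Fluor dyes and applied LOWESS normalization per array (GeneSpring GX). The deposited values are log2 ratios, 1 per probe and array. Scale and direction are not stated with the values: the log2 scale was inferred from a floor at −6.64, which occurs 10 times, and the direction from how samples are titled and from HSC82, which dox represses. Whether values were centered further is unknown. Spot intensities, flags and background were not analysed here, and the number of arrays limits the precision. No column was left unused (0 of other samples).

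Row names were matched to locus tags of the R64 table (5840 of 6377), which also gave the symbols of all members. Values were averaged within each culture, and the culture means of the 6290 genes with a value in both were tested against 0 by the two-sided moderated test of limma 3.58.1 under R 4.3.3, with Benjamini-Hochberg adjustment over all genes tested. Steps were tested on simulated data. The members and lists were chosen with earlier results of these data known. Values on every array were given for members past the adjusted threshold or beyond a mean log2 ratio of 1, and mostly for other called members, and the rest by culture means or ranges. Other members shown array by array, such as STE5, STE13 and GPA1, were picked after their values were seen. The alternatives covered thresholds, the unit of replication, normalization, missing values and each array or culture left out.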

Additional observations from a re-analysis of the deposited data

Results flagged for a closer look

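Each of the 55 members was searched for a single array far from its others, and 1 such array was found. By chance about 1 member in 20 would be flagged. The arrays of both cultures were searched together, so a difference between the cultures can hide an outlying array. MFA1 had a log2 ratio of −1.24 on the third array of culture 1, against −1.50 on the nearest array, and was below 0 on all 6.

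For 6 members the log2 ratio differed between the cultures by limma over the technical arrays (over 1.5-fold apart at an adjusted p below 0.05). The differences of culture 1 minus culture 2 were −1.20 for PRM9, −1.03 for ASG7, −0.81 for PRM10, −0.77 for PRM7, −0.70 for FAR1 and 0.65 for FIG1. The study swapped the isotope forms of treated and untreated cells between its experiments. The sample labels do not say which form the treated cells of each culture carried. An effect of the isotope form cannot be told apart from other differences between the cultures.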

How the results depend on the processing

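The count of 20 changed members (5 higher and 15 lower) became 12 under the adjusted p, of which 3 were higher and 9 lower, and 7 at 2-fold, of which 1 was higher and 6 lower. Without a fold threshold it was 29, of which 23 were lower, at a setting that called 29.1% of all genes (15.2% lower). With an array left out it was 18 to 22, and from the fold alone it was 17 without culture 1 and 22 without culture 2. Leaving out culture 1 lost 6 members (ASG7, FAR1, FIG1, FUS3, PRM10 and PRM2) and gained 3. Leaving out culture 2 lost 2 (STE3 and TEC1) and gained 4. Under the 6 changes of replication unit, normalization or missing values the count was 19 or 20. The number past the adjusted threshold (12) was 20 with the 6 arrays as replicates, with or without the culture as a random block, 17 after quantile normalization, 14 after scale normalization and 0 with median centering, where the count over all genes was 2. Leaving out 1 array gave 5, 11 and 7 for arrays 1, 2 and 3 of culture 1, and 8, 7 and 14 for those of culture 2. GPA1, STE12 and STE14, just short of 1.5-fold, were called in some of these fits. Of the MATa genes, all 7 met the criterion under each normalization, 6 with the adjusted p and 5 at 2-fold.

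The median of the induced genes was 0.0026 without culture 1 and −0.23 without culture 2, which bound the values with an array left out. With only the genes that had values on all arrays, the median of the induced genes was lower still, at −0.27. That of the cascade genes was between −0.43 (without culture 2) and −0.29 (without the first array of culture 2). The mean of PRM7 ranged between −0.11 (without culture 2) and 0.66 (without culture 1), and that of PRM9 between −1.05 (without culture 2) and 0.16 (without culture 1), so that 1 culture of each was opposite in sign to the mean of both cultures. The members that differed between the cultures (6) were 16 without a fold threshold. The other pathway genes called (7) were 2 with the adjusted p. A search of promoters for pheromone response elements was not run. Each ratio already pairs dox-treated with untreated cells, so the test of the ratios against 0 is the paired analysis.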
